A study of Mus musculus with 6 samples.

Results

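AMP-activated protein kinase (AMPK) is assembled from a catalytic α subunit, a scaffolding β subunit and a nucleotide-binding γ subunit. The 10 genes described here encode its subunits in BMDMs (Prkaa1, Prkaa2, Prkab1, Prkab2, Prkag1 and Prkag2) and the kinases upstream of it with their partners (Stk11, Strada, Cab39 and Camkk2). They were taken by gene symbol, under a rule that uses no measured value, but were chosen with earlier results of these data known. All 10 were found among the 54532 genes of the deposited table. They passed the filter on low values (1 TPM or more in 2 or more libraries), as 12755 genes did. The libraries are poly-A RNA of primary bone marrow-derived macrophages (BMDMs) of C57BL/6 mice, grown in medium conditioned by L929 cells, which supplies the macrophage growth factor M-CSF. There were 2 libraries each of untreated BMDMs (Untr), of BMDMs stimulated with LPS at 100 ng/ml over 2 h (LPS), and of BMDMs that were first kept for 6 h in metformin at 5 mM and then stimulated with LPS in the same way (Met + LPS). LPS is a bacterial cell wall component sensed through TLR4, and metformin is a biguanide used against type 2 diabetes. No group received metformin alone, so the effect of metformin was measured only in cells that had also received LPS. The age and sex of the mice, and whether the 2 libraries of a group came from separate mice, are not given in the sources used here, and p-values therefore measure the spread between these libraries, which may be technical.

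AMPK senses a fall in cellular energy. AMP or ADP bound to the γ subunit favours phosphorylation of the α subunit by liver kinase B1 (LKB1, encoded by Stk11), which works in a complex with the pseudokinase STRADα (Strada) and the scaffold MO25α (Cab39), while CaMKK2 (Camkk2) phosphorylates the same site in answer to calcium. Metformin inhibits the mitochondrial respiratory chain and is widely used to activate AMPK, and in macrophages AMPK activity is generally linked to oxidative metabolism and restraint of inflammatory responses. All values below are transcript levels, which say nothing of the phosphorylation of the kinase.

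Between 25457016 and 30762754 reads on genes per library were recovered from the TPM values (transcript abundance per unit of gene length, with every library brought to the same total). Tnf, a cytokine induced by LPS, was at 31.3 ± 3.19 TPM (SD, n = 2) without stimulation and at 3917 ± 4.75 TPM after LPS. All 8 macrophage markers examined reached 1 TPM, while markers of T cells, B cells, dendritic cells, erythroid cells, fibroblasts and mast cells summed to at most 6.92 TPM each. The macrophage markers summed to 44166 to 46080 TPM in untreated, 35148 to 35860 TPM in LPS libraries and 29186 to 29304 TPM in those with Met + LPS. Most of each sum was Lyz2, at means of 34912, 26835 and 21292 TPM. The macrophage markers did not move alike with LPS. Mean Adgre1 rose from 1543 to 1717 TPM and Spi1 from 468 to 609 TPM. Fcgr1 stayed at 165 TPM, while Csf1r (1891 to 1325 TPM), Cd68, Lyz2, Itgam and Mertk fell. The 5 neutrophil markers, of which Ly6g stayed at or below 0.140 TPM, summed to 27.2 to 30.9, 24.4 to 25.8 and 40.2 to 42.0 TPM. These sums move with the groups, and their part in the results below was not tested. In bulk libraries, fewer cells of a type and less RNA per cell cannot be told apart.

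In LPS-stimulated BMDMs, 7 of the 10 transcripts were lower and 2 were higher than in untreated BMDMs, in TPM as deposited. Of all tested genes, 60.1% were lower and 16.2% higher, and the median gene had a log2 fold change of -0.48. Rescaling of the libraries, described below, left 6 of the 10 lower and 2 higher. The catalytic subunit Prkaa1, the subunits Prkab1, Prkag1 and Prkag2 and the 3 genes of the LKB1 complex were at 0.481 to 0.631 times their untreated TPM. Camkk2 rose to 1.97 times and Prkab2 to 1.36 times. With metformin before LPS, Camkk2 fell to 0.574 times its level with LPS alone, Prkag1 to 0.666, Strada to 0.767 and Prkaa1 to 0.818 times, while Cab39 rose to 1.40 times. Stk11, Prkab1, Prkab2 and Prkag2 did not pass the test between Met + LPS and LPS. Prkaa2, a minor catalytic subunit here, was at 1.88 times its level with LPS alone but did not pass either.

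**Figure D1:**
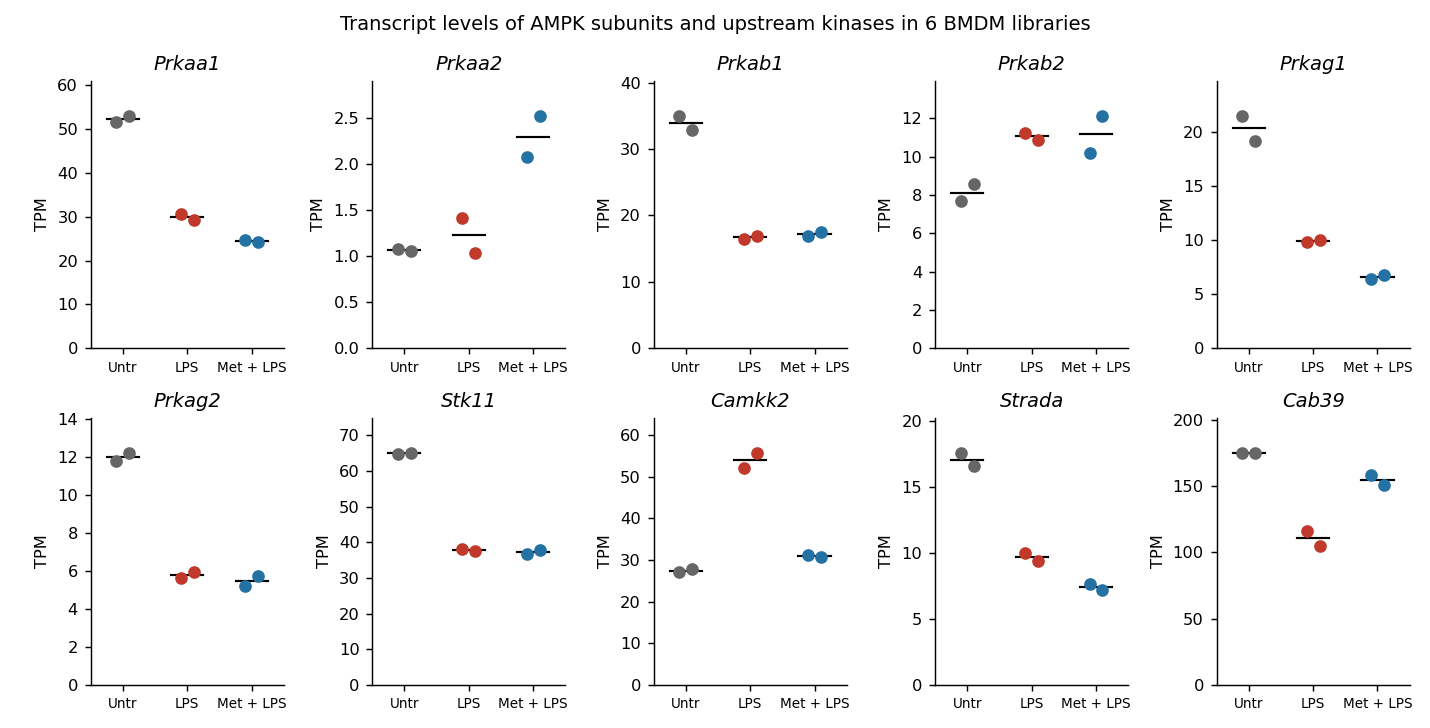
TPM of the 10 genes (vertical axes, linear, from 0, a scale of its own for each gene) in the untreated (grey), LPS (red) and Met + LPS (blue) libraries, 1 point per library and a black line at the mean of each group. Camkk2 was at 52.2 and 55.8 TPM in the LPS libraries and between 27.1 and 31.2 TPM in the other 4, whereas Prkaa1, Prkag1 and Strada were lowest in the Met + LPS libraries.

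Significance was taken from limma on log2(TPM + 1), as an adjusted p-value under 0.01 over the 12755 tested genes. For transcripts of few TPM, the added 1 makes the log2 fold change smaller than the change in TPM. In LPS vs. untreated, 9 of the 10 genes were called, where 76.3% of all tested genes were. The 2 that rose stand beside a background of 16.2% and the 7 that fell beside 60.1%. None of the 10 reached the study's cut-off for this comparison (a log2 fold change of 2 or more in either direction), which 6.08% of the tested genes passed. Their largest absolute log2 fold change was 0.98, the same 9 genes had an unadjusted p under 0.05, and limma voom on the recovered reads also gave 0 past that cut-off. Between Met + LPS and LPS, 5 of the 10 were called against 32.6% of all genes, 1 higher (14.5%) and 4 lower (18.0%). The study's cut-off of 0.7, which it set on tests of counts, was passed here by 1 of them, Camkk2, and by 8.28% of the tested genes. With limma voom on the recovered reads, Prkaa2 passed it too (0.92). Against untreated BMDMs, 8 of the 10 were called in Met + LPS (75.1%), 2 higher (16.3%) and 6 lower (58.8%). The share of called genes among the 10 was thus near that of all genes in the comparisons with untreated BMDMs.

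Much of the decrease after LPS was shared with the median gene. Over all tested genes the median log2 fold change was -0.48 in LPS vs. untreated and -0.48 in Met + LPS vs. untreated, but -0.03 in Met + LPS vs. LPS. For the 10 genes the medians were -0.76, -0.87 and -0.05. Rescaling the libraries by their median ratio over genes moved the median gene to -0.01 in LPS vs. untreated and left 8 of the 10 called (58.3% of all genes), with Prkab2 and Camkk2 higher (30.6%) and 6 lower (27.6%). Cab39 kept its call in limma voom with rescaling (adjusted p = 0.0094) but lost it in this limma fit (adjusted p = 0.051). All 10 were then called in Met + LPS vs. untreated (63.1%), 4 higher (33.4%) and 6 lower (29.7%). The comparison of Met + LPS with LPS had 5 calls after rescaling too (33.1% of all genes). The 3 comparisons share libraries in pairs, so their values are given side by side and not as independent evidence of each other.

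**Figure D2:**
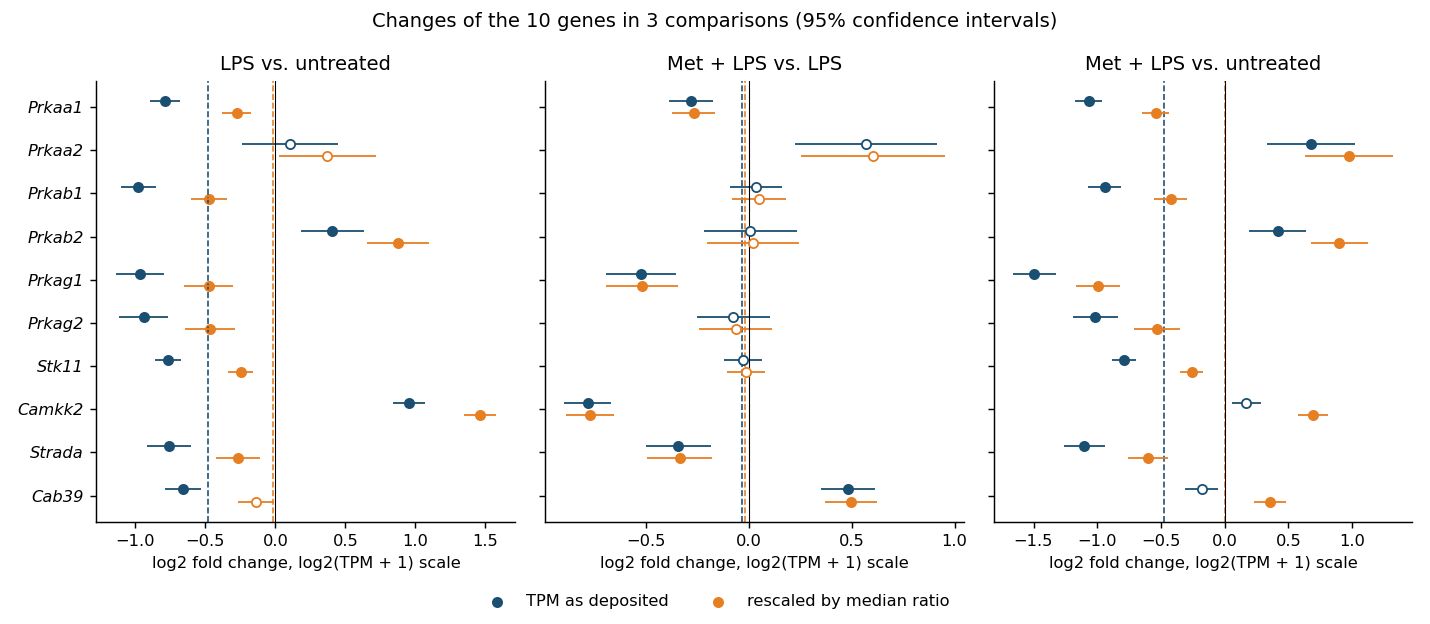
Log2 fold changes of the 10 genes (horizontal axes, log2(TPM + 1) scale) with 95% confidence intervals from limma, for TPM as deposited (blue) and after rescaling by the median ratio (orange). Filled points have an adjusted p under 0.01, and dashed lines mark the median of all tested genes, which lies at -0.48 for LPS vs. untreated in TPM as deposited and at -0.01 after rescaling.

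Prkaa1 (ENSMUSG00000050697, GRCm38 chromosome 15, 5143861 to 5181899, + strand) encodes α1, the main catalytic subunit of macrophages. Its level was 51.7 and 53.0 TPM in untreated, 30.6 and 29.1 TPM with LPS and 24.7 and 24.2 TPM in Met + LPS libraries, from 869 to 1829 reads. The 3 groups did not overlap, and the order was untreated, LPS, Met + LPS, with both neighbouring steps past the test. LPS lowered Prkaa1 by a log2 fold change of -0.79 ± 0.045 (SE; adjusted p = 6.6e-06), and after rescaling the value was -0.28. Met + LPS differed from LPS by -0.28 ± 0.045 (SE; adjusted p = 0.0027, range 0.00023 to 0.016 over the alternatives). That call was lost without LPS replicate 1 (-0.25), without Met + LPS replicate 1 (-0.29) or without Met + LPS replicate 2 (-0.26). It was also lost in a limma fit of the compared groups only (adjusted p = 0.013).

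Prkaa2 (ENSMUSG00000028518, chromosome 4, 105029874 to 105109890, - strand) encodes α2, the catalytic subunit that prevails in skeletal and heart muscle. It was the least abundant of the 10, with 1.07 and 1.05 TPM in the untreated, 1.42 and 1.03 TPM in the LPS and 2.08 and 2.52 TPM in the Met + LPS libraries, from 60 to 178 reads. Both Met + LPS libraries lay above the other 4, and the untreated and LPS libraries overlapped in TPM as deposited. After rescaling, the untreated libraries were at 0.833 and 0.813 and the LPS libraries at 1.58 and 1.16, without overlap. The rescaled log2 fold change of LPS vs. untreated was 0.37 in limma (adjusted p = 0.056), which did not pass. It was 0.72 in limma voom with rescaling (adjusted p = 0.0036), which passed. Met + LPS vs. LPS gave a log2 fold change of 0.57 ± 0.14 (SE; 95% confidence interval 0.23 to 0.92), which missed the threshold (adjusted p = 0.017, range 9.7e-05 to 0.09 over the alternatives). With limma voom on recovered reads, which does not add 1 TPM to so low a level, the value was 0.92 (adjusted p = 0.00015). Against untreated BMDMs the increase passed the test (0.67 ± 0.14, SE; adjusted p = 0.0039), but not without Untr replicate 1 (0.68), Untr replicate 2 (0.67) or Met + LPS replicate 2 (0.58). Without the filter on low values this increase did not pass either. The region before its start is printed here because Prkaa2 had the largest ratio between Met + LPS and LPS among the 10. It is the RefSeq promoter window of GRCm38.p6, chr4:105109898-105110148 on the - strand, 250 bases in lower case followed by the first transcribed base as a capital.
Prkaa2: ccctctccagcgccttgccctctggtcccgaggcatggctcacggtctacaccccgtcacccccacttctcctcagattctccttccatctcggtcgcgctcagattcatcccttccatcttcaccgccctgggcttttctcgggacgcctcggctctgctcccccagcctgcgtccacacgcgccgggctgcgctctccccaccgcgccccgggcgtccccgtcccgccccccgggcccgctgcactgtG
The window of 300 bases around this start, of which these are the upstream bases and the first base transcribed, had a GC content of 72.7% and 35 CpG dinucleotides.

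Together the α genes summed to 53.4 ± 0.934 TPM (SD, n = 2) in untreated, 31.1 ± 1.30 TPM with LPS and 26.7 ± 0.0507 TPM in Met + LPS libraries. On rescaled values these sums were 41.4 ± 0.595, 34.7 ± 1.29 and 30.2 ± 0.0601. Prkaa1 made up 98.0% and 98.1% of that sum in the untreated libraries, 95.6% and 96.6% after LPS, and 92.2% and 90.5% in Met + LPS. The Prkaa2 share was thus higher in each Met + LPS library than in any of the other 4, while α1 remained the bulk of the α transcripts. The ratio of Prkaa1 to Prkaa2 in Met + LPS was 0.432 times that with LPS alone. An exact two-sided permutation test of 2 libraries against 2 gave p = 0.333, the smallest it can give, so by that test no difference in a ratio can reach 0.05 here.

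Prkab1 (ENSMUSG00000029513, chromosome 5, 116013586 to 116024508, - strand) and Prkab2 (ENSMUSG00000038205, chromosome 3, 97658193 to 97673812, + strand) encode β1 and β2, which hold the complex together and bind glycogen. Prkab1 was at 35.0 and 32.9 TPM in the untreated, 16.5 and 16.9 TPM in the LPS and 16.8 and 17.5 TPM in the Met + LPS libraries. Prkab2 was at 7.66 and 8.55 TPM, 11.2 and 10.9 TPM, and 10.2 and 12.1 TPM in the same order. The β genes thus moved in opposite directions with LPS, Prkab1 falling by 0.98 ± 0.053 (SE; adjusted p = 5.4e-06) and Prkab2 rising by 0.41 ± 0.093 (SE; adjusted p = 0.0056, range 1.1e-08 to 0.031 over the alternatives) on the log2 scale. After rescaling the directions were the same, -0.47 and 0.87. The Prkab2 call was lost without Untr replicate 1 (0.34), LPS replicate 1 (0.39) or LPS replicate 2 (0.43). It was also lost in limma without the filter on low values (adjusted p = 0.022) and without the mean-variance trend (adjusted p = 0.012).

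Metformin before LPS left no detectable difference in either β transcript. Prkab1 had a log2 fold change of 0.04 (95% confidence interval -0.09 to 0.16), and Prkab2 one of 0.01 (-0.22 to 0.23), with adjusted p = 0.61 and 0.95. In Prkab2, the 2 Met + LPS libraries lay on either side of the LPS libraries. Prkab1 made up 82.0% and 79.4% of the summed β TPM in untreated BMDMs, 59.5% and 60.9% after LPS, and 62.3% and 59.1% in Met + LPS. The β2 share was about as large in both LPS-treated groups, and above that of each untreated library. The summed β level was 42.0 ± 0.884 TPM (SD, n = 2) in untreated, 27.8 ± 0.0839 TPM with LPS and 28.3 ± 1.84 TPM in Met + LPS libraries. On rescaled values these sums were 32.6 ± 0.787, 31.02 ± 0.235 and 32.0 ± 2.07.

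Prkag1 (ENSMUSG00000067713, chromosome 15, 98812797 to 98831521, - strand) and Prkag2 (ENSMUSG00000028944, chromosome 5, 24862744 to 25100642, - strand) encode γ1 and γ2, the subunits that bind AMP, ADP and ATP. Prkag1 had 21.5 and 19.2 TPM in the untreated, 9.78 and 9.95 TPM in the LPS and 6.39 and 6.75 TPM in the Met + LPS libraries, from 105 to 355 reads. Each group was below the one before it, without overlap. Prkag1 fell by 0.97 ± 0.071 (SE; adjusted p = 2.2e-05) on the log2 scale with LPS, and by a further 0.52 ± 0.071 (SE; adjusted p = 0.0014) in Met + LPS vs. LPS. After rescaling these log2 fold changes were -0.48 and -0.52. Its log2 fold change of -1.49 in Met + LPS vs. untreated was the largest decrease among the 10 genes in any of the 3 comparisons, in TPM as deposited and (-0.99) after rescaling.

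Prkag2 was at 11.8 and 12.2 TPM in the untreated, 5.62 and 5.94 TPM in the LPS and 5.19 and 5.70 TPM in the Met + LPS libraries. It fell with LPS (log2 fold change -0.94 ± 0.073, SE; adjusted p = 2.8e-05), and the rescaled value was -0.47. Prkag2 showed no detectable difference between Met + LPS and LPS (-0.07, 95% confidence interval -0.25 to 0.10). Prkag1 therefore made up 64.5% and 61.1% of the summed γ TPM of these genes in untreated BMDMs and 63.5% and 62.6% after LPS, and 55.2% and 54.2% in Met + LPS, below each of the other 4 libraries. The summed level went from 32.3 ± 1.31 TPM (SD, n = 2) over 15.6 ± 0.351 TPM to 12.0 ± 0.625 TPM. On rescaled values these sums were 25.1 ± 1.09, 17.5 ± 0.471 and 13.5 ± 0.703. Of the exon bases of Prkag1, 43.7% also belong to B130046B21Rik on the opposite strand, which had 0 to 0.473 TPM. For Prkag2, 14.5% are shared with Prkag2os1 and Prkag2os2, which had at most 0.551 TPM. Whether the counting used strand is not given in the sources used here, so reads of Prkag1 and Prkag2 and of these antisense genes cannot be told apart, and the levels of the γ genes relative to each other are uncertain. The third γ gene, Prkag3, known from fast-twitch skeletal muscle, had at most 3 reads in any library and was not tested. It had 0 reads in both Met + LPS libraries, which allows up to 0.108 and 0.0921 TPM.

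**Figure D3:**
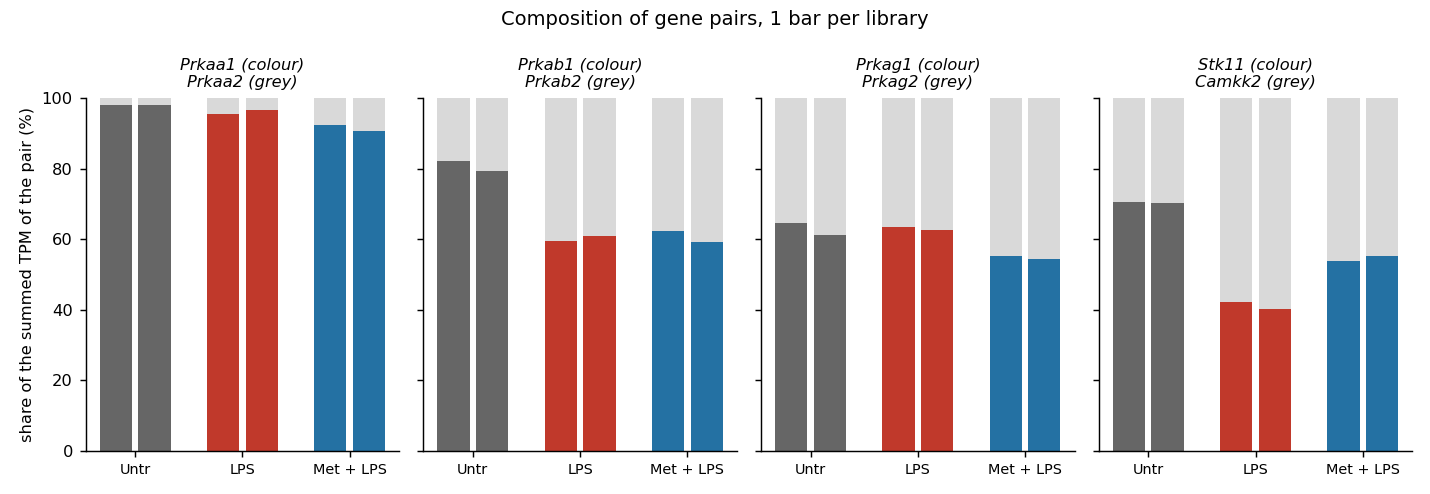
Share of the summed TPM of a gene pair (vertical axis, percent, from 0 to 100) held by the first gene (coloured part of the bar) and the second gene (grey part), 1 bar per library in the order untreated, LPS and Met + LPS. The Prkab1 share was 79.4% to 82.0% in untreated BMDMs and 59.1% to 62.3% in the other 4 libraries, and Stk11 was above Camkk2 in the untreated and Met + LPS libraries and below it in the LPS libraries.

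The LKB1 complex was measured through its kinase and its 2 partners. Stk11 (ENSMUSG00000003068, chromosome 10, 80115803 to 80130682, + strand), which encodes the kinase LKB1, was at 64.8 and 65.2 TPM in the untreated, 38.1 and 37.6 TPM in the LPS and 36.6 and 37.8 TPM in the Met + LPS libraries. It fell with LPS (log2 fold change -0.76 ± 0.038, SE; adjusted p = 4e-06; -0.25 after rescaling), and between Met + LPS and LPS the libraries overlapped, with a log2 fold change of -0.03 (95% confidence interval -0.12 to 0.07). This interval is the narrowest of the 10 genes. Of its exon bases, 5.07% overlap Cbarp on the opposite strand, which had at most 1.55 TPM.

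Strada (ENSMUSG00000069631, chromosome 11, 106163330 to 106202168, - strand) encodes STRADα, the pseudokinase that activates LKB1 and keeps it in the cytoplasm. It had 17.6 and 16.5 TPM in the untreated, 9.95 and 9.40 TPM in the LPS and 7.65 and 7.20 TPM in the Met + LPS libraries. The groups did not overlap. Strada fell by 0.76 ± 0.065 (SE; adjusted p = 4.6e-05) on the log2 scale with LPS, and Met + LPS vs. LPS gave -0.34 ± 0.065 (SE; adjusted p = 0.0057, range 0.00068 to 0.031 over the alternatives). The latter call was lost when any 1 of the 4 compared libraries was left out, with values between -0.38 and -0.30. It was also lost in limma on the compared groups only (adjusted p = 0.022) and without the filter on low values (adjusted p = 0.018). The rescaled value for LPS vs. untreated was -0.27 in limma (adjusted p = 0.0095) and -0.29 in limma voom (adjusted p = 0.0014). Its exons share 5.42% of their bases with Ccdc47 and Gm25556 on the same strand, and Ccdc47 was at 31.7 ± 1.10 TPM (SD, n = 2) with LPS and 39.4 ± 0.321 TPM in Met + LPS.

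Cab39 (ENSMUSG00000036707, chromosome 1, 85793441 to 85851576, + strand), which encodes the scaffold MO25α, was the most abundant of the 10. Its level was 175 TPM in each untreated library, 116 and 105 TPM in the LPS and 158 and 151 TPM in the Met + LPS libraries, from 5419 to 9458 reads. LPS libraries were the lowest and Met + LPS libraries lay between them and the untreated ones. Of the 10 genes, only Cab39 passed the limma test as higher in Met + LPS than in LPS, by a log2 fold change of 0.48 ± 0.054 (SE; adjusted p = 0.00061, range 1.1e-08 to 0.0058 over the alternatives), and 0.50 after rescaling. Its decrease with LPS was -0.66 ± 0.054 (SE; adjusted p = 3.6e-05, range 4.4e-11 to 0.051 over the alternatives). After rescaling the value was smaller, -0.14 in limma (adjusted p = 0.051) and -0.14 in limma voom (adjusted p = 0.0094). In Met + LPS vs. untreated the value was -0.18 (adjusted p = 0.019) in TPM as deposited. After rescaling it was 0.36 in limma (adjusted p = 0.00082) and 0.36 in limma voom (adjusted p = 2.7e-07). The position of Cab39 relative to untreated BMDMs thus has no settled direction. Within the LKB1 complex, Met + LPS thus differed from LPS for Strada and for Cab39 in opposite directions, and not detectably for Stk11.

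Camkk2 (ENSMUSG00000029471, chromosome 5, 122731170 to 122779409, - strand) encodes the calcium- and calmodulin-dependent kinase that can phosphorylate AMPK without LKB1. It was at 27.1 and 27.8 TPM in untreated, 52.2 and 55.8 TPM with LPS and 31.2 and 30.7 TPM in Met + LPS libraries, from 2172 to 4447 reads, and none of its exon bases are shared with another gene. LPS libraries were far above the other 4, and Met + LPS libraries lay just above the untreated ones. The log2 fold change was 0.95 ± 0.047 (SE; adjusted p = 3.9e-06) in LPS vs. untreated and 1.46 after rescaling. Met + LPS vs. LPS gave -0.78 ± 0.047 (SE; adjusted p = 5.4e-05, range 1.1e-11 to 0.0012 over the alternatives), and -0.83 to -0.73 when 1 library was left out. On the log2(TPM + 1) scale this was the largest change among the 10 genes between Met + LPS and LPS, with 3.55% of the tested genes below it. Met + LPS vs. untreated was 0.17 (95% confidence interval 0.06 to 0.28; adjusted p = 0.013) in TPM as deposited and did not pass the test. It passed with limma voom on recovered reads without rescaling (0.19, adjusted p = 0.00085) and in limma after rescaling (0.69). The region before its start is shown because, in limma on log2(TPM + 1), only Camkk2 of the 10 passed the study's cut-off. It is the RefSeq window of GRCm38.p6, chr5:122779410-122779660 on the - strand, with the first transcribed base as a capital.
Camkk2: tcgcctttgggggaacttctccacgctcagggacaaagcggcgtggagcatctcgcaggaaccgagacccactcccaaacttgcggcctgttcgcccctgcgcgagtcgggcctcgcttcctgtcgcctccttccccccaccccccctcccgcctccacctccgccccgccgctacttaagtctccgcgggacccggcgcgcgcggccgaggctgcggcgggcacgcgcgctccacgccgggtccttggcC
Its window of 300 bases had a GC content of 73.3% and 42 CpG dinucleotides.

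As a pair, a comparison added after the values had been seen, Stk11 and Camkk2 changed order. Stk11 made up 70.5% and 70.1% of their summed TPM in untreated BMDMs, 42.2% and 40.3% after LPS and 53.9% and 55.1% in Met + LPS. Per length, Camkk2 was thus above Stk11 in the LPS libraries and below it in the other 4. Their sum was 92.4 ± 0.716 TPM (SD, n = 2) in untreated, 91.9 ± 2.19 TPM with LPS and 68.2 ± 0.488 TPM in Met + LPS libraries. On rescaled values the sums were 71.6 ± 0.331, 102.6 ± 2.91 and 76.9 ± 0.543, so that the sum was level with LPS in TPM as deposited but higher after rescaling, and Met + LPS lay below untreated on the former scale and above it on the latter. The exact permutation test gave p = 0.333, the smallest possible, for each of the 3 comparisons of the ratio.

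The paralogs outside the 10 genes and the other kinase reported upstream of AMPK, TAK1 (Map3k7) with its partners, were followed as a list of 8 genes, of which 6 were tested. Stradb, the STRADβ gene, was at 11.3 ± 0.383 TPM (SD, n = 2) in untreated, 7.32 ± 0.279 TPM with LPS and 6.32 ± 0.295 TPM in Met + LPS libraries. Cab39l, the MO25β gene, was at 18.6 ± 0.267, 17.9 ± 0.118 and 16.2 ± 0.723 TPM, and did not share the rise of Cab39 in Met + LPS (log2 fold change vs. LPS -0.13, adjusted p = 0.077). Camkk1 had at most 6 reads per library and was not tested. Its 0 reads in the Met + LPS libraries allow up to 0.106 and 0.0909 TPM. With LPS, Tab2 rose (log2 fold change 1.30) and Tab1 (-2.56), Stradb (-0.56) and Map3k7 (-0.24) fell. Of all tested genes, 16.2% rose and 60.1% fell. After rescaling, 4 of the list were higher and 1 was lower (30.6% and 27.6% of all tested genes). Stradb lost its call (-0.09), Map3k7 turned to 0.28, Tab1 was at -2.07 and Tab2 at 1.82, and Cab39l (0.44) and Tab3 (0.47), the latter named here after its value was seen, became calls. With metformin before LPS, Tab2 fell by 0.46 on the log2 scale (adjusted p = 0.00012) and was the only call of the list. Of all tested genes, 32.6% were called in that comparison.

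In the lysosomal route of AMPK activation, AXIN1 and LKB1 are recruited to the Ragulator complex (Lamtor1 to Lamtor5). The list of 9 genes followed for it, all of them tested, also holds folliculin (Flcn) and its partners (Fnip1 and Fnip2). Whether these partners or folliculin raise or lower AMPK activity here was not tested. With LPS all 9 were lower in TPM as deposited, as 60.1% of all tested genes were, while after rescaling 4 were lower and 1 was higher (27.6% and 30.6% of all genes). Flcn fell from 121 ± 1.19 to 9.53 ± 0.791 TPM (SD, n = 2), Fnip2 from 459 ± 8.53 to 49.1 ± 2.40 TPM and Fnip1 from 90.3 ± 4.04 to 28.7 ± 0.708 TPM, and these 3 decreases kept their calls after rescaling. Met + LPS stood at 27.6 ± 0.400 TPM for Flcn, 141 ± 11.2 TPM for Fnip2 and 84.1 ± 7.11 TPM for Fnip1. Their log2 fold changes vs. LPS ran from 1.44 for Flcn to 1.52 for Fnip1, with adjusted p between 1.6e-05 and 1.9e-05. Each of these values is above that of any of the 10 AMPK genes. In the same comparison the Ragulator genes Lamtor4 (-0.64) and Lamtor1 (-0.47) fell, and of the 9 genes 4 were higher and 2 lower (14.5% and 18.0% of all genes).

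Of 21 genes for AMPK substrates, 20 were tested. With LPS, 3 rose and 14 fell in TPM as deposited (16.2% and 60.1% of all genes), and 6 rose and 9 fell after rescaling (30.6% and 27.6%). Pfkfb3, a glycolytic regulator, rose from 16.5 ± 0.0545 to 135 ± 1.76 TPM (SD, n = 2), and Tbc1d1 (1.68) and Crtc2 (1.11) also rose, whereas the transcription factor gene Foxo3 fell from 68.9 ± 0.829 to 2.42 ± 0.135 TPM and the genes Ulk1 (-1.73), for a kinase that starts autophagy, and Pfkfb2 (-1.56) fell. With metformin before LPS, 4 rose and 6 fell relative to LPS (14.5% and 18.0% of all genes). Pfkfb3 stood at 35.5 ± 3.17 TPM (SD, n = 2; log2 fold change -1.90, adjusted p = 8.6e-06), and Lipe (-0.59), for hormone-sensitive lipase, also fell. Foxo3 rose to 10.5 ± 1.07 TPM (1.74, adjusted p = 2e-05), with Hdac4 (0.67) and Ulk1 (0.52). Over the 5 lists together, 42 of 54 tested genes were called in LPS vs. untreated (77.8%), 23 in Met + LPS vs. LPS (42.6%) and 45 in Met + LPS vs. untreated (83.3%), where the shares of all tested genes were 76.3%, 32.6% and 75.1%.

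**Figure D4:**
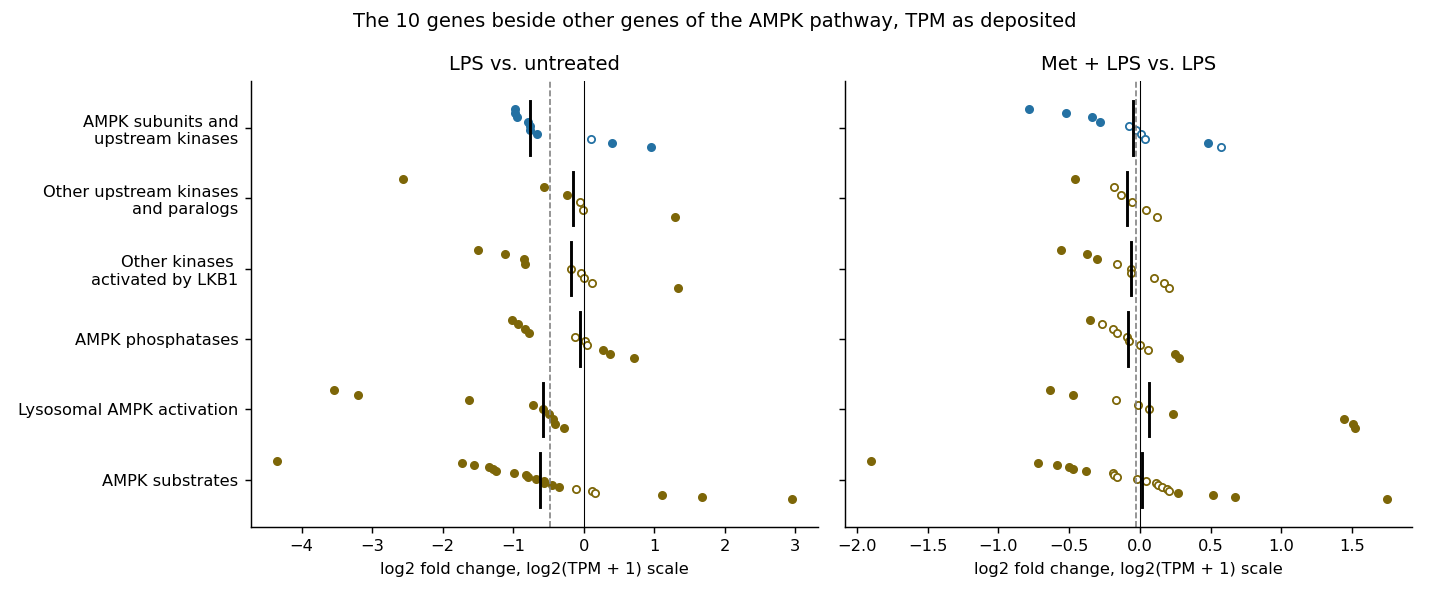
Log2 fold changes (horizontal axes, log2(TPM + 1) scale, TPM as deposited) of the 10 genes (blue) and of 5 lists of other AMPK pathway genes (brown), 1 point per tested gene, filled where the adjusted p was under 0.01, with a black bar at the median of each list and a dashed line at the median of all tested genes. In Met + LPS vs. LPS the 10 genes lie between -0.78 and 0.57, while 3 lysosomal genes lie at 1.44 to 1.52 and the substrate Pfkfb3 at -1.90.

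Among all tested genes, the 3 whose log2(TPM + 1) followed each of the 10 most closely over the 6 libraries were listed by Pearson's r, as a description over points that share libraries and treatment. Camkk2 was most like Endod1, Il4ra and Plekhf1 (r = 0.999 for each), and 43 genes had an r above 0.99. Il4ra, the gene for a chain of the IL-4 receptor, was at 43.3 TPM in untreated, 175 TPM with LPS and 52.7 TPM in Met + LPS libraries. Cab39 was most like Nipbl (0.999), Klf9 (0.998) and Osbpl9 (0.998), with 55 genes above 0.99. Prkaa2 was most like Pdlim7 (0.997), Prelid3b (0.995) and Timm10 (0.992), with 4 genes above 0.99, and Prkab2 had 1, Txndc9 (0.993). The patterns of Stk11, Prkab1, Prkag2, Prkaa1, Strada and Prkag1 were common, with 1142, 869, 828, 768, 534 and 402 genes above 0.99. Their nearest genes were Gm9821, Pithd1, Gmnn, Mlec, Ankrd27 and 6430531B16Rik, each with an r above 0.99.

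All 10 genes had RefSeq promoter windows of 300 bases (250 before and 50 after the start, GRCm38.p6), 12 in all since Prkag2 has 3. Their median GC content was 67.8% and their median number of CpG dinucleotides 31.5, against 52.7% and 7 over all 32851 windows. Those windows were not limited to genes that passed the filter on low values, as all 10 did. Whether the contrast is particular to the 10 was not tested. The strings CACGTG (an E-box of the CLEAR type), TGATGNAA (as bound by ATF4 with C/EBP proteins) and GGANTTTCC (an NF-κB type string) were searched on both strands, and none of the 3 strings contains another. None of the 12 windows held any of them, and of all windows 7.15%, 3.97% and 1.25% did. This says only that these letters are not in these windows.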

How the data were processed

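Total RNA of BMDMs was enriched for poly-A RNA, and libraries were made with a TruSeq RNA kit. The authors aligned reads with STAR 2.6.1d to GRCm38, used Samtools 1.9, counted reads per gene with featureCounts of Subread 1.6.3, tested counts with DESeq2, and deposited TPM values for 54532 genes in 6 libraries, without pooling. How counts became TPM is not given in the sources used here. Since the deposited unit is TPM, a test on reads served only as an alternative.

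The test was limma 3.58.1 (R 4.3.3) on log2(TPM + 1) of genes that reached 1 TPM in 2 or more libraries. The 6 libraries entered a single fit without covariates, with a mean-variance trend, 3 residual degrees of freedom and two-sided Benjamini-Hochberg adjusted p-values over all tested genes. Multiplying TPM by the exon length (GENCODE, 54495 genes matched) gave whole reads for 96.0% to 96.2% of values above 0 (tolerance 0.01 reads), and for every value of the 10 genes. Limits of 3 reads cover counting error only, while the 95% confidence intervals of log2 fold changes come from limma and rest on the spread between libraries. Replicates differed beyond counting noise (chi-square per degree of freedom 1.98 to 3.77). Tables and plots used Python 3.11.15, numpy 2.4.6, pandas 2.3.3 and matplotlib 3.10.9.

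The 10 genes and the pathway lists were chosen with earlier results of these data known. Named beyond the 10 are their paralogs and, in each list and comparison, up to 3 called genes with the largest increase and 3 with the largest decrease. A gene that this rule would name is not reported here. Alternatives were a pseudocount of 0.1, no filter or a minimum of 5 TPM, median-ratio rescaling, the compared groups only, a replicate block, no trend, a threshold of 0.05, limma voom on recovered reads with and without rescaling, and leaving out each library.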

Additional observations from a re-analysis of the deposited data

How the results depend on the processing

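Of 159 alternative values for the 10 genes in each comparison, 151 (LPS vs. untreated), 144 (Met + LPS vs. LPS) and 138 (Met + LPS vs. untreated) kept direction and call, 6, 10 and 9 lost the call, 1, 3 and 10 gained it, and 1, 2 and 2 changed sign. The sign changes were Prkaa2 in LPS vs. untreated without LPS replicate 1 (-0.021, up to 0.23 with another library left out), Prkab2 in Met + LPS vs. LPS without LPS replicate 2 (-0.01) and without Met + LPS replicate 2 (-0.11, up to 0.12 with another left out), and Cab39 in Met + LPS vs. untreated with median-ratio scaling, with limma and with voom (0.36 each). In Met + LPS vs. LPS, a fit of the compared groups only called 3 of the 10 genes and 2662 of all tested genes, in place of 5 and 4156, and it uses fewer samples. Prkaa1 and Strada lost their calls in it. Leaving out 1 library leaves a single library in a group, so for the 5 called genes the log2 fold changes are given. They were -0.31 to -0.25 for Prkaa1, -0.38 to -0.30 for Strada and -0.56 to -0.49 for Prkag1. For Camkk2 they were -0.83 to -0.73 and for Cab39 0.41 to 0.56. The calls lost in such fits are named above for Prkaa1 and Strada. The Prkab2 call in Met + LPS vs. untreated (0.42) was lost in 5 of 16 alternatives, among them without Untr replicate 1 (0.35) or Met + LPS replicate 2 (0.30). Voom on recovered reads, with or without rescaling, put 2 of the 10 past the study's cut-off in place of 1, the added gene being Prkaa2. The share of all genes past that cut-off with voom was not counted. By reads in place of TPM, which does not divide by gene length, Prkaa1 held 96.6%, 93.5% and 86.1% of the α genes in untreated, LPS and Met + LPS libraries, Prkab1 71.6%, 47.6% and 48.1% of the β genes, and Prkag1 36.2%, 36.4% and 28.8% of the γ genes. Of the reads of Stk11 and Camkk2, Stk11 held 50.1% and 49.6% in untreated, 23.4% and 22.0% in LPS and 32.9% and 34.0% in Met + LPS libraries. A minimum of 5 TPM dropped Prkaa2 from the test. Sample titles label replicate 1 of each group as A and replicate 2 as B. No shared deviation of libraries with the same letter was detected (correlations of deviations between -0.004 and 0.028). This cannot settle whether they were prepared as sets. With the replicate block, 9, 5 and 8 of the 10 genes were called in the 3 comparisons, as without it, and 9641, 3956 and 9436 of all tested genes. With 2 libraries per group, depth limits mainly Prkaa2 (60 to 178 reads) and Prkag1 (105 to 355 reads).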

Other observations

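The kinases other than AMPK that LKB1 activates were followed as a list of 12 genes, of which 9 were tested. With LPS 1 rose and 4 fell in TPM as deposited (16.2% and 60.1% of all tested genes), and 5 rose and 4 fell after rescaling (30.6% and 27.6%). Mark2, a microtubule affinity-regulating kinase gene, rose from 35.9 ± 0.0895 to 92.1 ± 3.06 TPM (SD, n = 2), and the genes Sik1 (log2 fold change -1.50), Nuak1 (-1.12) and Snrk (-0.85) fell and kept these calls after rescaling. In Met + LPS vs. LPS 3 fell in limma (18.0% of all tested genes), namely Nuak2 (-0.55), Snrk (-0.38) and Mark2 (-0.30).

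Phosphatases that act on AMPK and their subunits made up a list of 10 genes, all tested. With LPS 3 rose, Ppm1b (0.72), Ppp2ca (0.37) and Ppp2cb (0.27), and 4 fell, among them Ppp1r3e (-1.02), Ppp1r3d (-0.93) and Ppm1f (-0.83). Of all tested genes, 16.2% rose and 60.1% fell. After rescaling 6 rose and 2 fell (30.6% and 27.6% of all tested genes), and Ppp1r3d lost its call. In Met + LPS vs. LPS, Ppm1a rose from 25.8 ± 0.541 to 31.4 ± 0.0612 TPM (SD, n = 2; log2 fold change 0.28) and Ppp2r1a, the scaffold of protein phosphatase 2A, by 0.25, while Ppm1f fell by 0.35. Of all tested genes, 14.5% were higher and 18.0% lower in that comparison. All adjusted p-values were from limma over all tested genes.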
